A study of Bos taurus with 81 samples.

Results

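H3K4me3 was compared between the inner cell mass (ICM) and the trophectoderm (TE) of bovine blastocysts, the first lineages to separate in the mammalian embryo. The comparison rests on 4 libraries, 2 of each lineage, among the 81 libraries of the series. The libraries were made by CUT&Tag, in which an antibody against a histone mark tethers a transposase that cuts and tags the DNA nearby. Embryos were produced in vitro and grown without inhibitor, and about 1000 to 1500 cells (for oocytes, about 500) were pooled per library. The ICM was freed by immunosurgery, in which antibody and complement lyse the outer cells, and the TE was cut away with a micro scalpel. Lineage and way of isolation cannot be told apart. The labels do not say whether the 2 libraries of a lineage came from separate batches of embryos, so the spread between them may be technical. Other groups used here are morulae (MO, 122 h after insemination), whole blastocysts (BL, 172 h), oocytes at the germinal vesicle stage (GV) and cleavage embryos named by cell number (2C at 32 h, 4C at 44 h and 8C at 56 h), with 2 libraries per mark. ATAC-seq, which tags open chromatin without an antibody, had 3 libraries each of ICM, TE and BL.

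H3K4me3 is laid down by methyltransferases of the SET1 and MLL families, mostly around the start sites of genes that are active or held ready, and is concentrated at DNA rich in CpG. H3K27ac marks active promoters and enhancers, H3K27me3 is the mark of Polycomb repression, and H3K9me3 marks heterochromatin. The ICM gives rise to the embryo proper and the TE to the fetal part of the placenta.

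The authors deposited 1 peak list per library. Autosomes 1 to 29 were divided into 2488055 bins of 1 kb, and a bin was called marked in a library when at least 50% of it lay under that library's peaks. A bin was shared when all 4 libraries marked it, ICM-only when both ICM and no TE libraries did, and TE-only in the opposite case. Sequencing depth is unknown, because peak lists hold no read totals. Peaks were placed by coordinates of the ARS-UCD1.2 build, and no gene is named because no annotation of that build was used here. The lineage labels were for the same reason not checked against marker genes.

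The TE lists were longer than the ICM lists. ICM replicates 1 and 2 held 21874 and 22497 autosomal peaks that covered 37.7 Mb and 38.5 Mb. TE replicates 1 and 2 held 28215 and 24768 peaks that covered 46.7 Mb and 44.9 Mb. Both TE libraries lay above both ICM libraries, and TE coverage was 1.202-fold that of ICM. With 2 libraries against 2, the exact two-sided permutation test gave p = 0.333, the smallest it can give. The Jaccard index (bases in both lists over bases in at least 1) was 0.761 within ICM and 0.761 within TE. Between the lineages it was 0.612 to 0.640 over the 4 library pairs.

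Bins common to both lineages formed the largest class. Of 59315 bins marked in any of the 4 libraries, 29810 (50.3%) were shared, 2265 (3.82%) were ICM-only and 7146 (12.0%) were TE-only. The other 20094 bins (33.9%) were marked in only 1 library of ICM, of TE or of each, so that replicates differed there. Among these, 4010 bins were marked in 1 ICM and no TE library, and 8042 in 1 TE and no ICM library. In both lineages the separated bins were therefore fewer than the bins of that lineage alone that did not recur in the replicate.

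**Figure D1:**
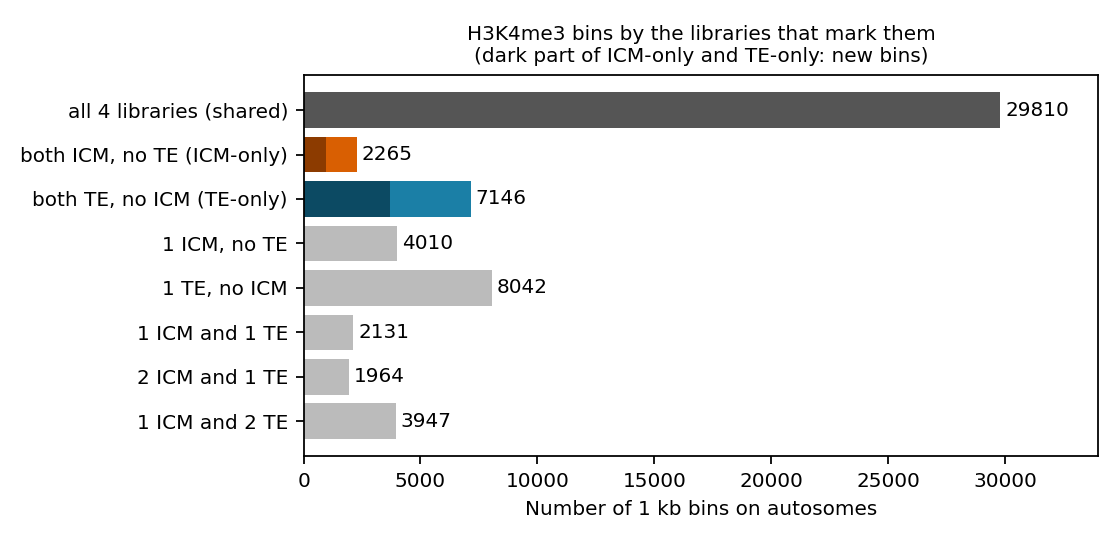
Number of autosomal 1 kb bins (horizontal axis) by how many ICM and TE libraries marked them with H3K4me3; the dark part of the ICM-only and TE-only bars is the number of new bins. Shared bins (29810) outnumber ICM-only (2265) and TE-only (7146) bins, and TE-only bins are 3693 new of 7146.

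The excess of TE-only bins was seen in the full lists and not in lists cut to one covered length. ICM-only bins made up 24.1% and TE-only bins 75.9% of the separated bins. When each list was shortened by the authors' score to the covered length of the shortest, 37.7 Mb, ICM-only bins numbered 3754 and TE-only bins 3862. The shares were then 49.3% and 50.7%. Lists cut to one length mark about as many bins in each lineage, so this near equality was largely built in by the shortening. It is no test of the excess of TE-only bins in the full lists, whose source was not tested. Leaving out a library also let in bins that its replicate marked and the omitted library had kept out. By the rule, the class of that lineage could only grow. ICM-only bins numbered 4359 without ICM replicate 1 and 4181 without ICM replicate 2, and TE-only bins numbered 11995 without TE replicate 2.

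Many separated bins lay close to the threshold. In the library of its own lineage with less coverage, 32.1% of ICM-only and 25.3% of TE-only bins were covered at 50 to 55%, while 1177 and 2441 bins missed the class at 40 to 45%. In the other lineage, 52.7% of ICM-only bins (1193) and 64.0% of TE-only bins (4576) had no covered base in either library.

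Separated bins were then divided into new peaks and wider shared peaks. A separated bin was called new when the stretch covered in both libraries of its own lineage touched no peak in either library of the other, and wider when it touched one. Among ICM-only bins 955 (42.2%) were new and 1309 (57.8%) were wider, with 1 bin that held no stretch common to both libraries. Among TE-only bins 3693 (51.7%) were new and 3453 (48.3%) were wider. In lists of one covered length the new share was 67.0% for ICM-only and 32.3% for TE-only bins, so the order of the lineages turned around. That shortening dropped the peaks of lowest score, mostly from the TE lists. An ICM-only bin could therefore count as new because a TE peak of the full list had been dropped.

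New bins formed 751 runs of neighbouring bins in ICM and 2886 in TE, and 81.1% and 80.6% of the runs were 1 bin long. The longest runs were 5 kb in ICM and 9 kb in TE. The nearest peak of the other lineage was a median of 2.75 kb away from ICM runs (quartiles 0.750 and 13.2 kb) and 7.73 kb away from TE runs (1.85 and 27.4 kb). Of the runs, 12.5% in ICM and 13.8% in TE had no peak of the other lineage within 50 kb. New sites were thus mostly short, and many ICM ones sat beside peaks present in TE.

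Wider bins lay mainly at one flank of a peak held by both lineages. In 87.6% of 1179 ICM-only wider runs and 85.2% of 2962 TE-only wider runs, the rest of the stretch met a peak of the other lineage on 1 side only. In 3.56% and 5.50% it did so on both sides, so that the run bridged a gap between peaks of the other lineage. The touched peak was found in both libraries of the other lineage for 84.7% of ICM-only and 78.9% of TE-only wider bins.

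Widths were also compared peak by peak, over peaks matched 1 to 1 between a pair of lists. The TE peak was wider by at least 1 kb in 7.19% and 7.64% of matched peaks against ICM replicate 1, and in 6.57% and 6.95% against ICM replicate 2. The ICM peak was wider by that much in 2.14% to 2.41%. Between replicates the share was 0.422% and 0.714% in ICM and 0.511% and 0.803% in TE. Both directions between lineages thus lay above the spread of replicates in each of the 4 pairs. The median width difference of matched peaks was 100 bp toward TE in each pair. Over the whole autosomal lists the median width was 1400 bp in both ICM lists, and 1250 bp and 1450 bp in TE replicates 1 and 2.

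**Figure D2:**
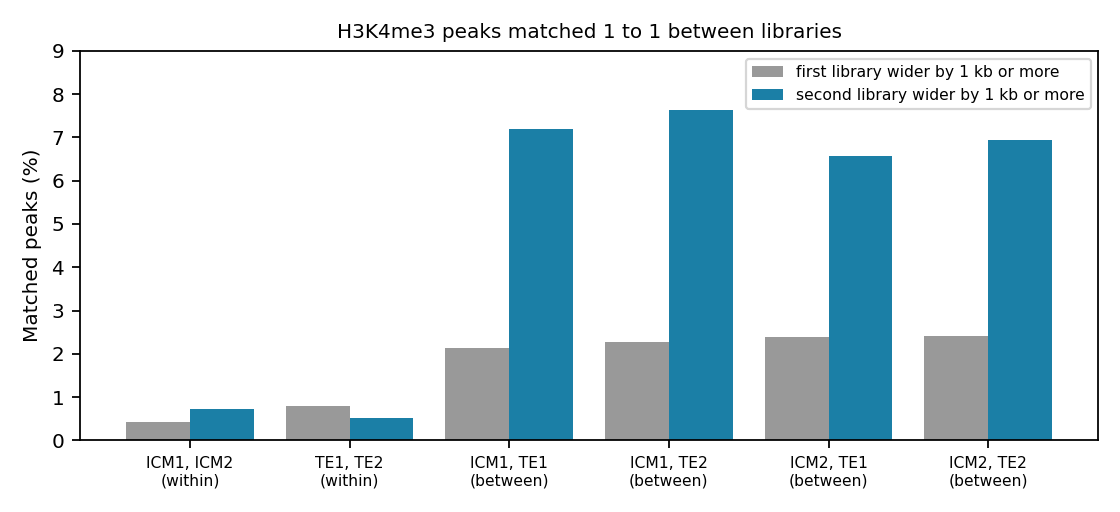
Percentage of H3K4me3 peaks matched 1 to 1 (vertical axis) in which the first (grey) or the second (blue) named library is wider by 1 kb or more, for the pairs within and between lineages. Pairs between lineages reach 6.57% to 7.64% on the TE side and 2.14% to 2.41% on the ICM side, above the 0.422% to 0.803% of replicate pairs.

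Peaks of 1 lineage ranked low in their own lists. The score is the authors' value per peak, of unstated meaning, and was used only to rank peaks within a list. Peaks found in the replicate but in no library of the other lineage numbered 1508 and 1546 in the ICM lists and 4894 and 4690 in the TE lists. Their median score rank was at percentiles 22.4 and 22.2 in ICM, and 31.5 and 24.0 in TE. Peaks found in all 4 lists had median ranks at percentiles 60.6, 61.8, 69.6 and 66.3. Median widths were 700 bp in both ICM lists and 800 bp in both TE lists, against 1750 to 2000 bp for the peaks found in all 4.

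Separated bins were spread over all 29 autosomes. ICM-only bins were fewest relative to the marked bins on chromosome 24 (24 of 1060) and most on chromosome 6 (5.43%). TE-only bins made up 9.37% (chromosome 14) to 15.8% (chromosome 16) of the marked bins. TE-only bins outnumbered ICM-only bins on each autosome in the full lists. The ICM-only share of separated bins was lowest on chromosome 24 (12.6%) and highest on chromosome 2 (33.2%).

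Open chromatin and H3K27ac, measured in other libraries, were compared at these bins. At ICM-only bins, ATAC peaks covered at least 50% of the bin in 49.2%, 58.0% and 49.9% of bins in the 3 ICM libraries. The 3 TE libraries had 29.4%, 36.3% and 29.1% there. At TE-only bins the ICM libraries had 37.0%, 45.9% and 36.8% and the TE libraries 64.5%, 70.7% and 62.5%. The lineages did not overlap in either class, and each class was open more often in its own lineage. At shared bins the values were 79.2% ± 2.72 in ICM and 79.05% ± 2.77 in TE (SD, n = 3).

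H3K27ac separated the classes within a library more widely than ATAC did. It marked 75.6% and 71.8% of ICM-only bins in the ICM libraries and 16.4% and 15.2% in the TE libraries. At TE-only bins it marked 47.1% and 42.6% in ICM and 59.3% and 61.0% in TE. There the lineages lay closer together for H3K27ac (means of 44.8% in ICM and 60.2% in TE) than for ATAC (39.9% and 65.9%). H3K27ac was itself more extensive in ICM, where it marked 3.97% of all autosomal bins against 2.34% in TE, and at shared bins it marked 80.4% ± 2.58 in ICM and 57.3% ± 2.38 in TE (SD, n = 2).

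The difference was tested within libraries, so that a longer list weighs on both classes. For each library the percentage of TE-only bins marked was subtracted from that of ICM-only bins. This value was 12.1 to 13.1 points in the ATAC libraries of ICM and -35.1 to -33.5 points in those of TE. For H3K27ac it was 28.5 and 29.2 points in ICM and -42.9 and -45.8 points in TE. Summed over both assays, the lineages differed by 120 points (exact two-sided permutation test, p = 0.0167, the smallest the 120 arrangements can give, adjusted p = 0.0208 over 5 joint tests). ICM exceeded TE in every pair of libraries of an assay. ATAC alone gave an exact permutation p of 0.1 and H3K27ac alone 0.333, the smallest possible for their library numbers.

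Measured in percentage points, the lineage difference was larger at new bins than at wider bins. At ICM-only new bins H3K27ac marked 83.8% ± 3.26 in ICM and 20.2% ± 1.85 in TE, and at ICM-only wider bins 66.3% ± 2.27 and 12.6% ± 0.162 (SD, n = 2). At TE-only new bins H3K27ac marked 44.95% ± 3.79 in ICM and 69.4% ± 0.670 in TE, and at TE-only wider bins 44.7% ± 2.44 in ICM against 49.0% and 51.5% in the 2 TE libraries. ATAC marked 77.3% ± 3.52 of TE-only new bins in TE and 43.7% ± 5.01 in ICM, against 53.7% ± 5.07 and 35.8% ± 5.36 at wider bins (SD, n = 3). The summed difference between lineages was 149.98 points at new bins and 92.2 points at wider bins, each with an exact permutation p of 0.0167 (adjusted p = 0.0208). The difference between new and wider bins was 57.7 points with the same exact permutation p and adjusted p. By the rule, wider bins belonged to stretches that touched H3K4me3 peaks of the other lineage. TE libraries covered some base of 66.7% of ICM-only wider bins on average, and of 1.36% of new ones. For ICM libraries at TE-only bins the means were 58.2% and 0.433%. The bearing of this on the difference was not tested.

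**Figure D3:**
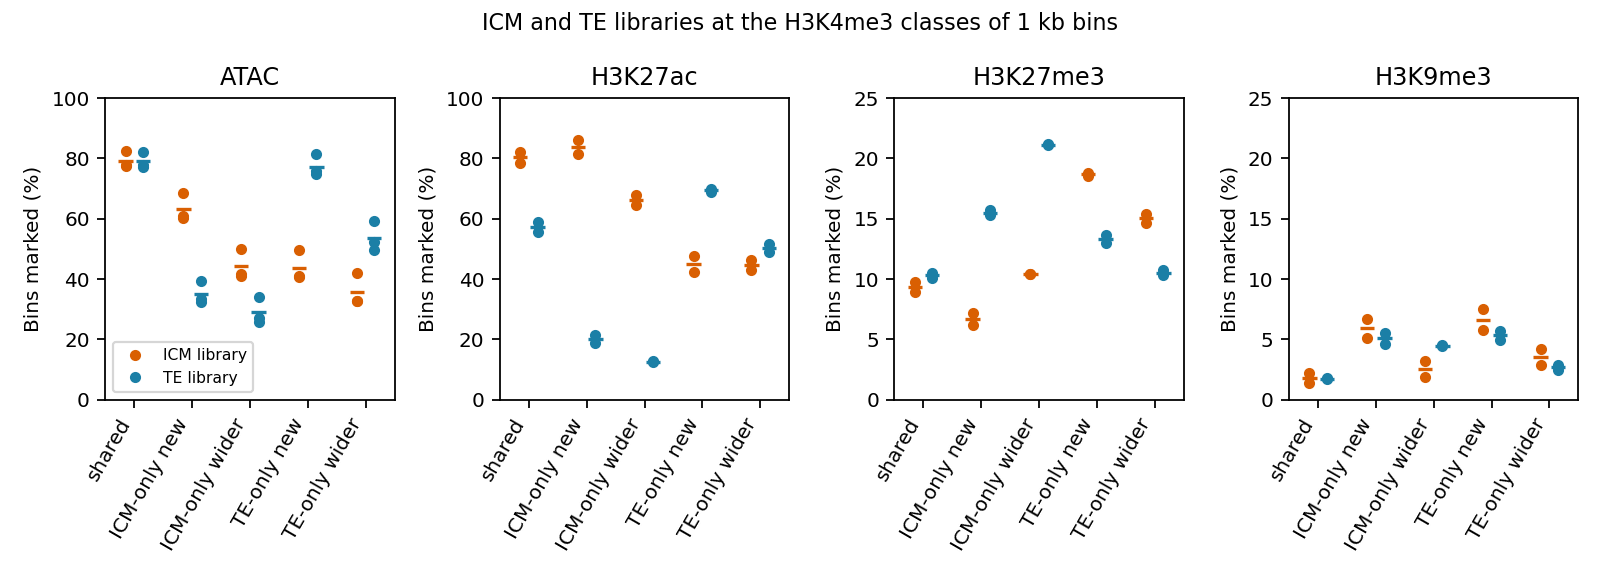
Percentage of bins marked (vertical axes; the scale ends at 25% for H3K27me3 and H3K9me3) in each ICM (orange) and TE (blue) library at the classes of H3K4me3 bins; points are libraries and lines their means. ATAC and H3K27ac are higher in the lineage that holds the H3K4me3, as in ICM-only new bins with 83.8% for H3K27ac in ICM against 20.2% in TE, and H3K27me3 is higher in the lineage that lacks it.

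Patterns over all libraries of a lineage were then counted bin by bin. H3K27ac was found in both ICM and no TE library at 49.3% of ICM-only bins, against 1.53% of all autosomal bins, and at 16.0% of shared bins. It was found in both TE and no ICM library at 16.5% of TE-only bins, against 0.447% of all bins, and at 0 of the 2265 ICM-only bins. For ATAC the pattern of all ICM and no TE libraries held 10.3% of ICM-only bins (0.334% of all bins). The pattern of all TE and no ICM libraries held 15.3% of TE-only bins (0.420% of all bins). Marked in every library of both lineages were, for ATAC, 19.2% of ICM-only and 25.6% of TE-only bins (1.47% of all bins), and for H3K27ac 11.8% and 31.5% (1.28% of all bins). Bins with none of the 4 other assays in any library of their own lineage were 4.81% of ICM-only and 5.98% of TE-only bins, counting any ATAC base, against 1.05% (ICM) and 2.79% (TE) of shared bins.

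H3K27me3 lay in the opposite direction to H3K4me3. At ICM-only bins it marked 9.05% and 8.61% in the ICM libraries and 18.9% and 18.6% in the TE libraries. At TE-only bins it marked 17.0% and 16.8% in ICM and 11.7% and 12.2% in TE. The libraries of the lineages did not overlap in either class. Genome-wide, H3K27me3 marked 9.88% of bins in ICM and 10.98% in TE. A bin that had H3K4me3 in ICM only and H3K27me3 in TE only was found 199 times, or 8.79% of ICM-only bins against 1.88% of all autosomal bins. The pattern of H3K27me3 in ICM only held 3 ICM-only bins (0.132%, against 1.12% of all bins). Among TE-only bins the numbers were 372 (5.21%) with H3K27me3 in ICM only and 92 (1.29%) with H3K27me3 in TE only. H3K27me3 was found together with H3K4me3 in both libraries of the own lineage at 8.21% of ICM-only and 10.9% of TE-only bins, beside 8.38% and 9.35% of shared bins in ICM and TE. All 4 H3K27me3 libraries marked 7.90% of ICM-only and 9.03% of TE-only bins (6.76% of all bins).

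H3K9me3 marked 4.51% of all autosomal bins in ICM and 6.18% in TE. It marked 3.97% ± 0.999 of ICM-only bins in ICM and 4.77% ± 0.312 in TE, and 5.14% ± 1.08 and 4.06% ± 0.396 of TE-only bins (SD, n = 2). The lineages overlapped at ICM-only bins, and at TE-only bins the lower ICM library (4.38%) lay just above the higher TE library (4.34%). H3K9me3 in ICM only was found at 27 ICM-only and 125 TE-only bins (1.19% and 1.75%, against 0.840% of all bins). H3K9me3 in TE only was found at 38 and 68 (1.68% and 0.952%, against 1.86%), and in all 4 libraries at 29 and 120 (1.28% and 1.68%, against 1.99%). For H3K27me3 and H3K9me3 together the summed difference was -16.8 points, of which -14.9 came from H3K27me3. The exact permutation p of 0.0556 is the smallest that 36 arrangements can give, so this test could not pass (adjusted p = 0.0556).

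Single regions show how the assays combine. The longest new run of TE was 9 kb long (chromosome 20, 71607001 to 71616000), with H3K4me3 over 88.3% and 88.9% of it in TE and none in ICM. H3K27ac covered 75.6% and 81.7% of it in TE and none in ICM. H3K27me3 covered 100% of it in both TE libraries and 86.7% and 100% in ICM, and H3K9me3 covered 100% and 64.4% in TE and none in ICM. Peaks of H3K4me3, H3K27me3 and H3K9me3 thus lay together there in TE.

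The second, 8 kb long (chromosome 23, 45610001 to 45618000), also ranked first by score among new TE runs, at percentiles 94.3 and 93.6 of the TE lists. H3K4me3 covered 93.1% and 98.8% of it in TE and 86.3% and 97.5% in BL, and none in ICM or MO. H3K27me3 and H3K9me3 each covered 100% of it in both ICM libraries and none in either TE library. In MO H3K27me3 and H3K9me3 covered 100% in both libraries. This region thus had both repressive marks in MO and ICM, and H3K4me3, H3K27ac (55.6% and 68.8%) and ATAC (76.3% to 91.9%) in TE.

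Among the longest TE-only stretches attached to a shared peak, 1 of 7 kb (chromosome 5, 27003001 to 27010000) was covered at 100% and 97.1% in TE, at 92.1% and 95% in BL, and not at all in ICM or MO. It belonged to a peak at percentile 99.9 of both TE lists. H3K27me3 was absent from it in the ICM, TE, MO and BL libraries. A TE-only stretch of 5 kb on chromosome 2 (126345001 to 126350000) was covered by H3K27ac at 98% in both ICM libraries and 100% in both TE libraries, while H3K4me3 was absent in both ICM libraries and complete in both TE libraries. H3K4me3 and H3K27ac thus did not always separate together.

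The longest new runs of ICM were 5 kb. At the first (chromosome 13, 7904001 to 7909000) H3K4me3 covered 85.0% and 95% in ICM, none in TE or MO, and 67.0% and 55.0% in BL. H3K27ac covered 33.0% and 38.0% in ICM and none in TE. The new ICM run with the highest score rank lay on chromosome 18 (48541001 to 48545000), at percentiles 90.0 and 87.3, and had H3K27ac over 100% and 97.5% in ICM and 13.8% in both TE libraries. An ICM-only stretch of 4 kb on chromosome 6 (69720001 to 69724000), attached to a shared peak, was covered by H3K4me3 at 100% in both ICM libraries and both MO libraries and not in TE. There H3K27me3 covered 100% in both TE and both BL libraries and none in ICM or MO, and H3K27ac covered 100% in both ICM libraries and none in TE. In this region the morula had the marks of ICM, as it did on chromosome 23. On chromosome 13, by contrast, H3K4me3 was absent in MO as in TE. How often the morula had the marks of ICM was not counted over regions.

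The longest shared run was 16 kb (chromosome 17, 60085001 to 60101000), covered at 95.3% to 98.1% in the 4 libraries. It had no H3K27me3 in ICM or TE.

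The separated bins were followed back to the morula and the whole blastocyst. In MO, H3K4me3 marked 47.6% and 59.7% of ICM-only bins and 25.7% and 31.6% of TE-only bins. In BL it marked 57.3% and 64.5% of ICM-only bins and 70.3% and 78.6% of TE-only bins. The order of the classes was opposite in the 2 stages in each library. Shared bins were marked at 93.4% ± 2.02 in MO and 98.7% ± 0.638 in BL (SD, n = 2). With bins classed from lists of one covered length the means were 62.5% (ICM-only) and 29.6% (TE-only) in MO and 70.7% and 84.2% in BL, with the same order. No test was run on these differences, since an exact permutation of 2 libraries against 2 cannot reach the threshold. Whole blastocysts hold both lineages.

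By their status in both stages, 40.7% of TE-only bins were marked in both BL and neither MO library, against 15.2% of ICM-only bins. Bins marked in both MO and both BL libraries were 25.2% of ICM-only and 15.3% of TE-only bins. Bins marked in both MO and neither BL library were 9.18% and 2.59%. Bins in no MO and no BL library were 12.1% and 11.0%. New and wider bins had the same order: 40.6% of TE-only new and 40.7% of TE-only wider bins were in both BL and neither MO library, against 15.6% and 15.0% for ICM-only bins. TE-only bins were thus more often marked in BL without MO, and ICM-only bins more often in MO. Of shared bins, 89.5% were marked in both MO and both BL libraries and 3.70% in both BL and neither MO library. Another 0.231% were in both MO and neither BL library, and 0.0637% in no MO and no BL library. Over all autosomal bins, H3K4me3 marked a mean of 1.89% in MO and 1.94% in BL.

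**Figure D4:**
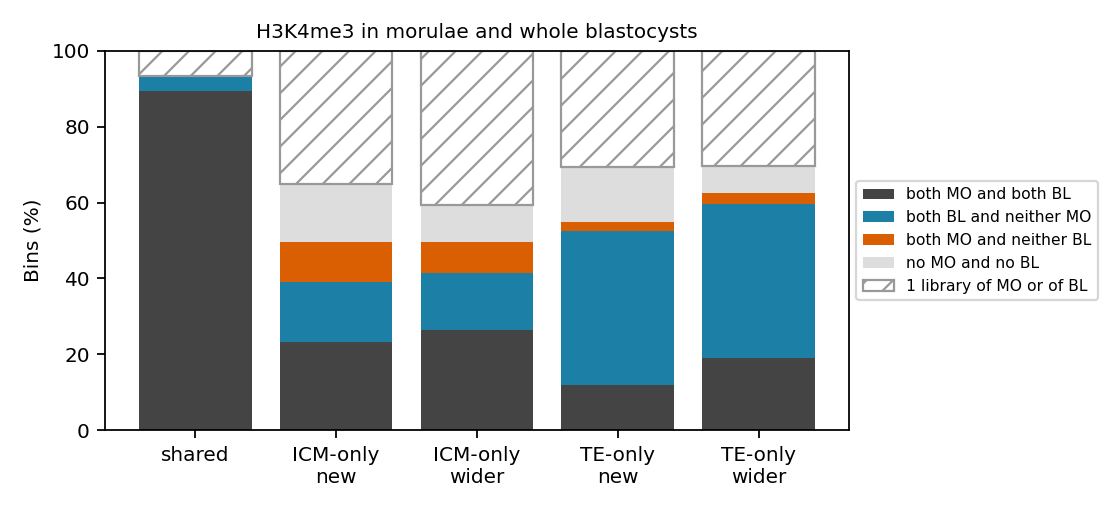
Percentage of bins of each class (vertical axis) by H3K4me3 in the 2 MO and 2 BL libraries; hatched bins were marked in 1 library of a stage. Blue, for both BL and neither MO library, is 40.6% and 40.7% in the TE-only classes and 15.6% and 15.0% in the ICM-only classes.

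The classes also differed in H3K27ac and H3K27me3 of the morula. H3K27ac in MO marked 49.8% and 49.4% of ICM-only bins and 42.9% and 38.9% of TE-only bins. In BL it marked 27.2% and 29.4% against 48.1% and 50.8%. The BL lists were less extensive, with H3K27ac at 2.03% of all autosomal bins against 4.64% in MO. In MO the H3K27ac difference was 16.3 and 19.9 points at new bins and 1.61 and 4.85 points at wider bins. H3K27me3 in MO marked 10.4% and 10.2% of ICM-only bins and 16.7% and 16.1% of TE-only bins. For both marks the classes in MO stood in the order seen in ICM, and for H3K27me3 each GV, 2C, 4C and 8C library had that order too. ATAC in BL covered 43.6%, 52.2% and 57.0% of ICM-only bins and 50.0%, 63.8% and 69.7% of TE-only bins, higher at TE-only bins within each of the 3 libraries.

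For H3K4me3 itself the classes were closer together before the morula. It marked 24.5% ± 3.68 of ICM-only and 31.5% ± 2.84 of TE-only bins in GV oocytes, where it marked 6.64% of all autosomal bins, and 32.8% ± 7.55 and 31.8% ± 7.88 at 8C (SD, n = 2). Within each GV, 2C and 4C library the ICM-only value was lower (differences of -5.88 to -7.67 points), and in both 8C libraries the ICM-only value was higher, by 0.724 and 1.18 points. At 8C this order held for wider bins and not for new bins. About equal shares, 50.3% of ICM-only and 48.2% of TE-only bins, were unmarked in all 8 libraries of GV, 2C, 4C and 8C, against 11.1% of shared bins. Bins marked in none of the GV, 2C, 4C, 8C, MO and BL libraries were 7.51% of ICM-only and 6.21% of TE-only bins.

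**Figure D5:**
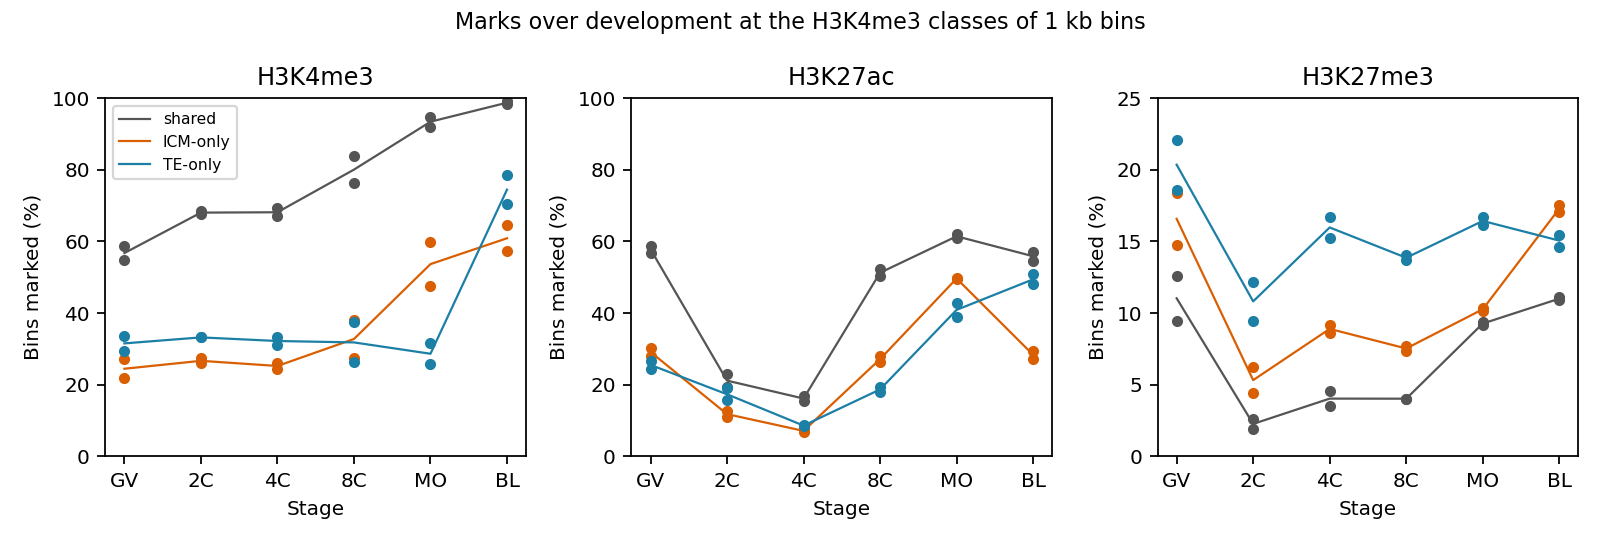
Percentage of shared, ICM-only and TE-only bins marked (vertical axes; the scale ends at 25% for H3K27me3) by H3K4me3, H3K27ac and H3K27me3 from the GV oocyte to the blastocyst; points are libraries and lines join their means. For H3K4me3 the ICM-only line is above the TE-only line in MO (53.7% against 28.6%) and below it in BL (60.9% against 74.5%).

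Compared with the other assays under the same 1 kb rule, H3K4me3 had the highest share of bins common to all libraries. It was 50.3% of bins marked in any ICM or TE library, against 46.3% for H3K27me3, 23.6% for ATAC, 23.1% for H3K27ac and 20.6% for H3K9me3. For ATAC all 6 libraries had to mark a bin in place of 4, and the differences between assays were not tested.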

How the data were processed

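Members and lists were chosen with earlier results of these data known. The authors deposited 1 peak list per library. Reads were placed on ARS-UCD1.2, per the submitters' processing notes, which list SICER, BWA 0.7.9a, SAMtools 1.9, Picard 2.26.10, Trim Galore 0.4.0 and cutadapt 1.8.3. The lists are named for epic2; which caller made them, its cutoff and any control were not given in the sources used here. Each deposited peak carries a score, a whole number of unstated meaning and normalization, used to rank peaks within a list. Groups came from the sample titles. Bins of 1 kb on autosomes 1 to 29 were marked at 50% coverage in every assay. Joint tests enumerated all arrangements of library labels, two-sided, with Benjamini-Hochberg adjustment over 5 tests. Regions named were the longest runs of each class and the new runs with the highest score ranks, by a rule that took the lower rank of both libraries; those described were picked from that list after their values were seen. Alternatives changed the coverage, bin size, list length, score, chromosomes, joining of peaks and libraries used; 2 were chosen after seeing the data. Classes and tests were checked on simulated data. Python 3.11.15, NumPy 2.4.6, pandas 2.3.3, SciPy 1.17.1 and matplotlib 3.10.9 were used.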

Additional observations from a re-analysis of the deposited data

Results flagged for a closer look

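The classes of bins stood in opposite order in morula and whole blastocyst in 3 marks, with every library of a stage on its side. These differences were not tested. Whole blastocysts hold both lineages, so cell composition and change over time cannot be told apart. The percentage of ICM-only minus that of TE-only bins marked by H3K4me3 was 25.0 points in MO and -13.6 points in BL. For H3K27ac it was 8.75 points in MO and -21.1 points in BL. For H3K27me3 it was -6.16 points in MO and 2.23 points in BL; at new bins alone it was negative in both stages.

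Measured in percentage points, the difference between ICM and TE libraries in ATAC and H3K27ac was 57.7 points larger at new than at wider bins. The exact permutation p was 0.0167, the least that 120 arrangements allow (adjusted p = 0.0208). The sign was the same in every pair of ICM and TE libraries of an assay. Wider bins belonged, by the rule, to stretches that touched peaks of the other lineage, and the bearing of that on this difference was not tested.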

How the results depend on the processing

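The counts of bins followed the bin size, with shared, ICM-only and TE-only bins at 59894, 4524 and 14421 for 500 bp, 14086, 993 and 3287 for 2 kb, and 3278, 413 and 1165 for 5 kb. Lists of one covered length gave 3754 ICM-only and 3862 TE-only bins. Asking for no covered base in the other lineage, chosen after seeing the data, gave 1193 and 4576. Leaving out 1 library gave 30768 to 32034 shared, 3223 to 4359 ICM-only and 8869 to 11995 TE-only bins.

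The new share of ICM-only and TE-only bins was 68.1% and 72.8% with any covered base, 19.2% and 26.5% at 80% coverage, 67.0% and 32.3% in lists of one covered length, 45.9% and 55.7% without the lowest 20% of scores, and 31.7% and 44.3% when a peak within 1 kb counted as touching. Leaving out 1 library gave 35.6% to 42.5% and 48.1% to 55.0%. ICM-only bins marked in MO and BL were 72.6% and 90.8% with any covered base and 62.5% and 70.7% in lists of one covered length; TE-only bins were 45.6% and 95.2%, and in BL 84.2% in lists of one covered length.

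Whether the replicate numbers pair the samples is not known. The deviations of same-numbered ICM and TE libraries correlated at 0.00628 for H3K4me3. The values for the other assays were also small and positive, from 0.000744 (H3K27ac) to 0.0199 (H3K27me3). With the replicate number as a block, only the arrangements change, so the summed differences in ATAC and H3K27ac stay the same. They were 119.951 (classes), 149.981 (new), 92.2417 (wider) and 57.7395 (new against wider). Each had an exact permutation p of 0.0625 (adjusted p = 0.0781), the smallest 32 arrangements allow. The threshold of 0.05 was thus out of reach with the block. Leaving out 1 library gave 96.9 to 121.4, 133.6 to 151.8, 66.1 to 93.6 and 57.2 to 68.4 points. Depth is unknown, so a bin outside a list is not shown to lack the mark.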

Other observations

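The X chromosome, left out above, held 1634 bins marked by H3K4me3 in any of the 4 libraries, of which 875 (53.5%) were shared, 51 (3.12%) ICM-only and 169 (10.3%) TE-only.

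H3K9me3 of the oocyte and the cleavage stages marked TE-only bins more often than ICM-only bins. In GV oocytes it marked 15.6% ± 0.228 of TE-only and 9.25% ± 0.468 of ICM-only bins, and 3.51% and 3.70% of shared bins in the 2 libraries, where it marked 7.51% of all autosomal bins (SD, n = 2). At 4C the values were 17.5% ± 0.435, 9.67% ± 0.437 and 4.15% ± 0.225. In MO they were 4.84% ± 0.910 and 4.88% ± 0.718 for TE-only and ICM-only bins, and the classes overlapped.

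New bins from peaks at or above the median score of both own lists numbered 180 in ICM and 787 in TE. H3K27ac marked 86.4% ± 0.393 of these ICM bins in ICM and 9.44% ± 1.57 in TE, and 36.5% ± 2.70 of the TE bins in ICM and 81.9% ± 0.270 in TE (SD, n = 2). ATAC marked a mean of 52.0% of the ICM bins in ICM and 16.9% in TE. Of the TE bins it marked 29.4% in ICM and 72.0% in TE. ATAC in the own lineage was thus lower than at all new bins, where it marked 63.4% in ICM and 77.3% in TE.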
